A study of Drosophila melanogaster with 6 samples.

Results

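The small heat shock proteins of *Drosophila* are chaperones built around a shared alpha-crystallin domain, and 10 genes of this family were examined in the heads of aging flies: *Hsp22*, *Hsp23*, *Hsp26*, *Hsp27*, *Hsp67Ba*, *Hsp67Bc*, *l(2)efl*, *CG7409*, *CG14207* and *CG4461*. They were taken by gene symbol from a count table of 17492 genes, in which all 10 were found. RNA was measured in 3 samples of 30d heads and 3 samples of 3d heads, all from line 5905, a *w1118* stock used as the wild type. These flies therefore carry a mutant *white* gene at both ages, and the flies kept for aging were males. The labels do not say whether the samples of an age came from separate cultures, so p-values measure the spread between these samples, which may be technical in part.

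Small heat shock proteins bind unfolding proteins without using ATP and hold them in a state from which the Hsp70 machinery can refold them or send them for degradation. Many of the fly genes are switched on within minutes of heat by heat shock factor, the product of *Hsf*, and some also by the molting hormone ecdysone. Several of them, *Hsp22* above all, have been linked to aging and lifespan in flies. Levels are given as CPM, the count of a gene relative to the size of its library after scaling by the TMM method. The ages were compared for all genes together by the two-sided quasi-likelihood test of edgeR, with Benjamini-Hochberg adjustment over the 8773 genes that held enough counts and a threshold of 0.05.

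Of the 10 genes, 9 were tested. *CG7409*, *Hsp67Bc*, *CG4461* and *Hsp67Ba* were lower in 30d heads, to between 32.3% and 52.4% of the level in 3d heads. *Hsp23*, *Hsp26* and *Hsp27* had lower means at 30d but differed widely between samples of one age and did not pass the threshold. *l(2)efl* and *CG14207* had nearly equal means at both ages. *Hsp22* had no count in any sample. Thus 4 of the 9 genes passed the threshold in the direction of a fall, where 16.1% of all genes tested did (6 at an unadjusted p under 0.05, 3 with DESeq2 and 4 with limma-voom). In the direction of a rise 0 of the 9 passed, where 14.4% did (likewise 0 at an unadjusted p under 0.05, 0 with DESeq2 and 0 with limma-voom). Of all genes tested 30.4% passed in either direction. A called fall of at least 1 on the log2 scale was found for *CG7409*, *Hsp67Bc* and *CG4461*, and for 1.36% of all genes. The ages did not overlap for 4 of the 9, all lower at 30d, whereas 22.5% of all genes had every 30d sample below every 3d sample, 22.3% had every 30d sample above, and 44.8% did not overlap in either direction. Over the 9 genes the median log2 fold change was -0.85, against 0.02 over all genes tested.

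Libraries had 3479385 to 3544615 counts at 30d and 3176380 to 3741860 counts at 3d, and the least abundant members, *Hsp67Ba* and *Hsp67Bc*, rest on 10 to 41 counts a sample. As a check of the labelled tissue, *ninaE*, the major rhodopsin of the compound eye, stood between 27970 and 34680 CPM at 30d and between 21170 and 27200 CPM at 3d. The replicate that stood farthest from its fellows was 3d replicate 1, for which a chi-squared comparison with the other 3d samples gave 6.21 and 5.58 per degree of freedom, where the other 4 pairs of replicates gave 2.29 to 4.72. For each of *CG7409*, *Hsp67Bc*, *CG4461* and *Hsp67Ba* an exact permutation test over the samples (two-sided) gave p = 0.1, the smallest value that groups of 3 allow. The test of edgeR is not limited by the number of orderings of the samples, and its estimate of the spread draws on all genes.

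**Figure D1:**
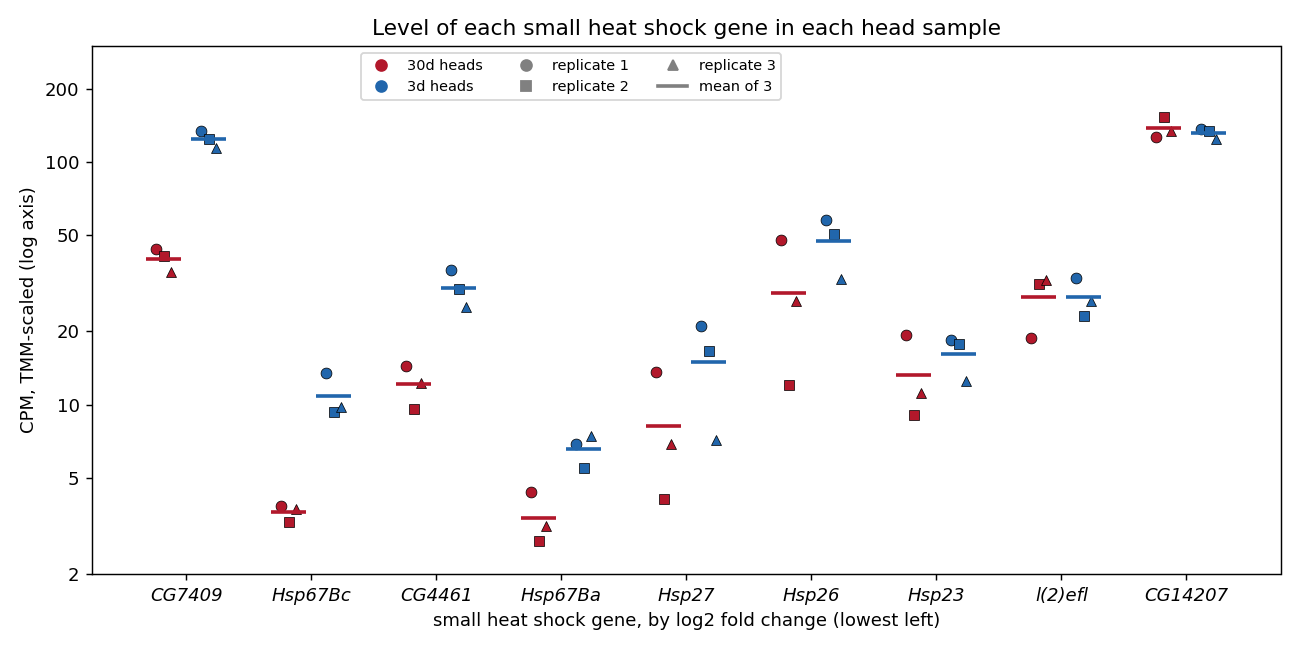
Each point is the TMM-scaled level (CPM, log axis) of a small heat shock gene in one head sample, with 30d samples in red to the left of 3d samples in blue, the symbol giving the replicate number and the bar the mean of 3. The 4 genes at the left do not overlap between the ages, whereas the other 5 do, and *Hsp26* and *Hsp27* span the widest range within an age.

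Most of the family sits in one place. In the Ensembl annotation of dm6, 7 of the 10 genes lie in a cluster of 14.2 kb on chromosome 3L, from 9371511 to 9385694, the 67B locus. From left to right it holds *Hsp67Bc* (FBgn0001229, minus strand), *Hsp22* (FBgn0001223, plus), *CG4461* (FBgn0035982, plus), *Hsp26* (FBgn0001225, minus), *Hsp67Ba* (FBgn0001227, minus), *Hsp23* (FBgn0001224, plus) and *Hsp27* (FBgn0001226, plus). *CG7409* (FBgn0035817) lies on the same arm from 7754409 to 7755168, 1.62 Mb to the left of the cluster. *CG14207* (FBgn0031037) lies on the X chromosome from 19605199 to 19611413, and *l(2)efl* (FBgn0011296) on chromosome 2R from 23684651 to 23685543. The genes that fell and those that did not pass the threshold were interspersed within the cluster, with *Hsp26* lying between *CG4461* and *Hsp67Ba*.

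**Figure D2:**
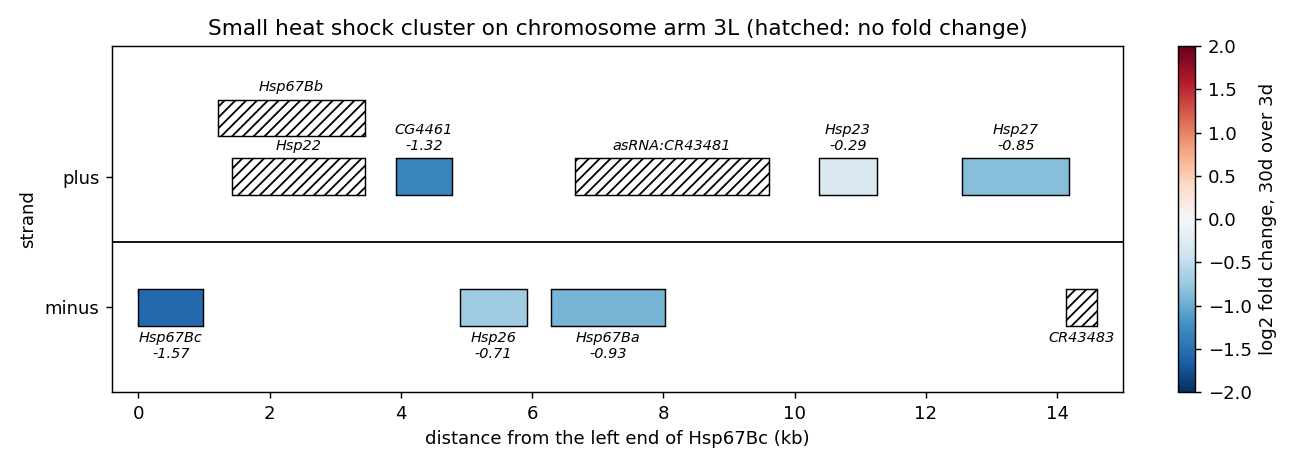
Genes of the 67B cluster are drawn to scale by their distance (kb) from the left end of *Hsp67Bc*, on the plus strand above and the minus strand below, with the log2 fold change of 30d over 3d as color and number. Hatched genes have no fold change here, among them *Hsp22* and *Hsp67Bb*, whose exons overlap, and the 6 genes with a value run from -1.57 for *Hsp67Bc* to -0.29 for *Hsp23*.

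*Hsp22*, the small heat shock protein of the mitochondrial matrix, is listed at 0 counts in all 6 samples, and so is *Hsp67Bb*, its neighbor in the cluster, which encodes no alpha-crystallin domain. In the annotation used here (where *Hsp67Bb* has the name *CG4456*), all 1900 exon bases of *Hsp22* are also exon bases of *Hsp67Bb*, and only bases at the left of *Hsp67Bb* are its own. Under the counting rule of the deposited table, a read contained in exons that several genes share is assigned to none. A count of 0 corresponds to fewer than 3 counts, or between 0.817 and 0.985 CPM in these libraries, but this limit covers reads assigned to *Hsp22* alone. With such an annotation the table gives no measurement of *Hsp22* RNA at either age.

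*CG7409* showed the clearest fall of the family and the lowest fold change in it. Its level was 43.9, 40.8 and 35.2 CPM in the 30d samples, against 133, 124 and 114 CPM in the 3d samples. The ages were far apart, and the samples of each age lay close together. The means were 39.9 ± 4.39 CPM at 30d and 124 ± 9.63 CPM at 3d (SD, n = 3 each). On the log2 scale the fold change was -1.63 ± 0.10 (standard error), with an adjusted p of 9.82e-07 in edgeR, so that 32.3% of the 3d level remained. In the order of fold changes over the 8773 genes it came 35th from the lowest. When single samples were dropped, the value stayed between -1.70 and -1.55, and it passed the threshold in each of these 6 fits.

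*Hsp67Bc*, which acts with the co-chaperone Starvin in clearing misfolded proteins by autophagy and is regarded as the fly counterpart of human HSPB8, fell as well, from a much lower level. It had 14, 12 and 13 counts at 30d, or 3.81, 3.28 and 3.72 CPM, against 41, 34 and 33 counts at 3d, or 13.5, 9.29 and 9.78 CPM. The 30d samples agreed closely, and all were well below the lowest 3d sample. The fold change on the log2 scale was -1.57 ± 0.25 (standard error), with an adjusted p of 0.000561 in edgeR, and dropping single samples moved it between -1.67 and -1.39, past the threshold throughout.

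*CG4461*, which lies next to *Hsp22* in the cluster, had 14.4, 9.57 and 12.3 CPM at 30d, against 35.8, 30.0 and 25.2 CPM at 3d. The highest 30d sample was well below the lowest 3d sample. The means of 12.1 ± 2.44 and 30.3 ± 5.31 CPM (SD, n = 3 each, 30d then 3d) correspond to -1.32 ± 0.18 on the log2 scale (standard error), with an adjusted p of 0.000192 in edgeR. The value stayed between -1.47 and -1.17 when single samples were dropped, and past the threshold.

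*Hsp67Ba* is the least certain of the 4. It had 16, 10 and 11 counts at 30d and 21, 20 and 25 counts at 3d, or 4.36, 2.74 and 3.15 CPM against 6.90, 5.46 and 7.41 CPM. The ages did not overlap, but the gap between 16 and 20 counts is within counting error. Its fold change was -0.93 ± 0.28 on the log2 scale (standard error), with an adjusted p of 0.0240 in edgeR. When single samples were dropped it passed the threshold in 2 of 6 fits, which lacked 30d replicate 1 or 3d replicate 2. In the other 4 fits the adjusted p-value lay at or below 0.0979, with a log2 fold change of -0.79 without 30d replicate 2, -0.88 without 30d replicate 3, -0.90 without 3d replicate 1 and -0.84 without 3d replicate 3. DESeq2's Wald test gave an adjusted p-value of 0.151. An antisense RNA, *asRNA:CR43481*, covers 75.9% of the exon bases of *Hsp67Ba*, and 417 bases are its own. If the authors' annotation also held this RNA, reads lying in both were not counted.

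**Figure D3:**
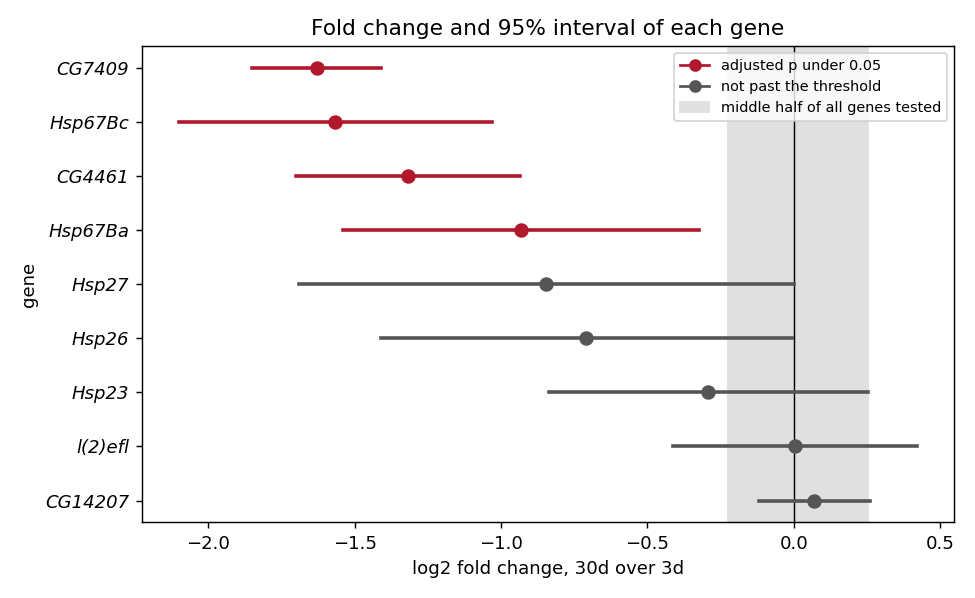
Points give the log2 fold change of 30d over 3d for each of the 9 genes tested and lines its 95% interval from the edgeR fit, in red where the adjusted p-value was under 0.05. The gray band runs between the lower and upper quartile of all genes tested, from -0.22 to 0.25, and the intervals of *CG7409*, *Hsp67Bc*, *CG4461* and *Hsp67Ba* lie below it.

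*Hsp23*, *Hsp26* and *Hsp27* behaved differently, in that the samples of one age disagreed. *Hsp23* and *Hsp26* encode cytosolic chaperones, and *Hsp27* one that resides in the nucleus. *Hsp26* had 47.4, 12.0 and 26.6 CPM at 30d, against 57.8, 50.5 and 32.9 CPM at 3d. The highest 30d sample held 3.94 times the level of the lowest, and it exceeded the lowest 3d sample. *Hsp27* had 13.6, 4.10 and 6.87 CPM at 30d, against 21.0, 16.7 and 7.11 CPM at 3d. *Hsp23* had 19.3, 9.03 and 11.2 CPM at 30d, against 18.4, 17.8 and 12.5 CPM at 3d, and its highest sample of all was a 30d sample.

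Beside the spread of these genes stands counting error, which leaves out any difference between the flies of each sample. The coefficient of variation of *Hsp26* at 30d was 62.0%, where counting error gives 9.82%, and at 3d it was 27.2%, where counting error gives 7.97%. For *Hsp27* it was 59.7% at 30d and 47.6% at 3d, where counting error gives 18.4% and 14.2%. For *Hsp23* it was 41.3% at 30d and 20.2% at 3d, where counting error gives 14.5% and 13.6%. A spread above counting error was not particular to these genes, since *CG4461* had 20.1% at 30d and 17.5% at 3d, where counting error gives 15.1% and 9.93%. The log2 fold changes were -0.71 for *Hsp26* (standard error 0.33, adjusted p = 0.120 in edgeR), -0.85 for *Hsp27* (0.39, 0.122) and -0.29 for *Hsp23* (0.25, 0.411). Their 95% intervals ran from -1.41 to -0.0043, from -1.69 to -0.00062 and from -0.84 to 0.25, and those of *Hsp26* and *Hsp27* include a log2 change of -1 as well as values close to 0.

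These calls depended on single samples and on the settings of the test. Without 30d replicate 1, *Hsp26* had a log2 fold change of -1.29 (adjusted p = 0.00390), *Hsp27* of -1.43 (adjusted p = 0.0175) and *Hsp23* of -0.68 (adjusted p = 0.0343) in edgeR's test, and 7 of the 9 genes were called lower. *Hsp27* was also called without 3d replicate 3 (-1.18, adjusted p = 0.0274). With all samples kept, *Hsp26* and *Hsp27* were called lower when the replicate number entered as a block (adjusted p = 0.0141 and 0.0140 in edgeR). They were also called with no filter beyond 1 count (adjusted p = 1.44e-07 and 0.000258 in edgeR), but not with DESeq2 or limma-voom. Without the filter the standard error of *Hsp26* was 0.12, against 0.33 with it and 0.58 with DESeq2. For *Hsp27* it was 0.20, against 0.39 and 0.41. The exact permutation test gave p = 0.2 for each of these genes. Over the 6 fits that left out a sample, the log2 fold change lay between -1.29 and -0.34 for *Hsp26*, between -1.43 and -0.52 for *Hsp27* and between -0.68 and -0.077 for *Hsp23*.

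The 3 genes ranked the samples alike within each age. At 30d replicate 1 was highest and replicate 2 lowest, and at 3d replicate 1 was highest and replicate 3 lowest. *CG4461* followed the same order at both ages, as did *Hsp68* and *Hsp70Bb*, heat-inducible genes of the Hsp70 family that lie elsewhere in the genome. Of the 7 acute heat shock genes tested, *Hsp70Bc*, *Hsp83*, *DnaJ-1*, *stv* and *Hsromega* did not show the order at both ages. *Hsp83* and *stv* were lowest in replicate 1 at both ages. The order was found in 3.02% of all genes tested. *Hsp68* stood at 64.0, 24.9 and 30.3 CPM at 30d, against 78.8, 68.6 and 38.2 CPM at 3d. This order was read from *Hsp23*, *Hsp26* and *Hsp27* after their values were seen, and of the other 6 small heat shock genes tested only *CG4461* showed it at both ages.

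Several clock genes also differed between the samples of an age. *per* and *tim*, whose RNAs cycle over the day, were lowest in replicate 1 of each age: *per* had 65.4, 183 and 204 CPM at 30d, against 87.0, 140 and 174 CPM at 3d. *tim* had 272, 696 and 925 CPM at 30d, against 332, 624 and 1051 CPM at 3d. *vri*, *Pdp1* and *cwo* had the same order of samples as *per* and *tim* at both ages, *Clk* had the reverse order, and *cyc* and *cry* had neither order at both ages. The samples with the lowest *per* and *tim* were those with the highest *Hsp23*, *Hsp26* and *Hsp27* at each age. The full orders were not mirrored at 30d, where *per* and *tim* were highest in replicate 3 but these heat shock genes lowest in replicate 2. Among the small heat shock genes tested, only *CG7409* had the reverse of the order of *per* and *tim* at both ages. None of the 8 clock genes tested passed the threshold between the ages with edgeR, at an unadjusted p under 0.05, with DESeq2 or with limma-voom. However, 1 was called higher without 30d replicate 1, 1 with no filter beyond 1 count and 1 with the replicate number as a block. The sources used here give no hour of dissection, and the part of the clock in the levels of the heat shock genes was not tested. When the samples numbered 1 of both ages were left out, an alternative added after these values were seen, 6 of the 9 small heat shock genes were lower, *Hsp26* and *Hsp27* among them. In the same fit 2 of the 8 clock genes were called higher.

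**Figure D4:**
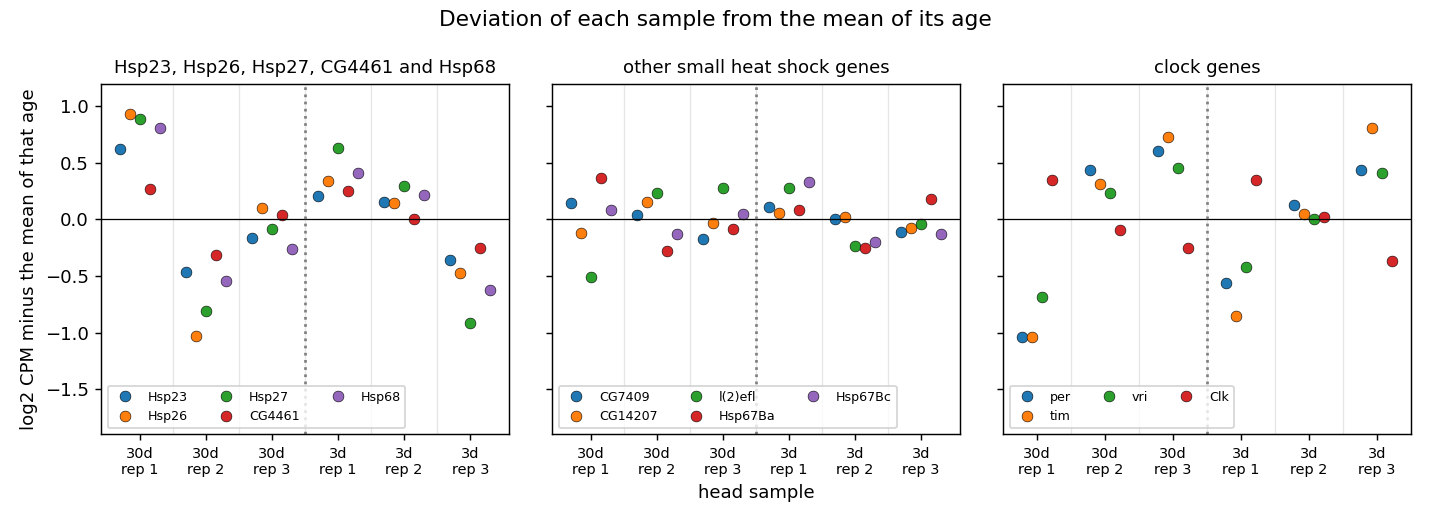
Each point is the log2 CPM of a gene in one sample minus the mean of that gene over the 3 samples of the same age, for *Hsp23*, *Hsp26*, *Hsp27*, *CG4461* and *Hsp68* (left), the other small heat shock genes (middle) and 4 clock genes (right), with 30d samples to the left of 3d samples. In the left panel every gene is above its mean in replicate 1 of each age, in the right panel *per*, *tim* and *vri* are below theirs in the same samples, and *CG7409* and *CG14207* stay close to 0.

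*CG14207* and *l(2)efl* are among the members that have been found at the sarcomeres of fly muscle, and *l(2)efl* is the nearest fly relative of the human alpha-crystallins. *CG14207* had 126, 153 and 135 CPM at 30d, against 136, 133 and 125 CPM at 3d. The ages overlapped fully. The log2 fold change was 0.07, its 95% interval ran from -0.12 to 0.26, and a log2 change of 1 in either direction lies well outside the interval. *l(2)efl* had 18.8, 31.5 and 32.6 CPM at 30d, against 33.2, 23.2 and 26.7 CPM at 3d. The means of 27.6 ± 7.67 and 27.7 ± 5.06 CPM (SD, n = 3 each, 30d then 3d) were nearly the same, but the interval of the log2 fold change, from -0.41 to 0.42, is wider.

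In the same libraries muscle RNA was lower at 30d. Of 16 muscle markers 14 were tested and 13 passed the threshold, all of them lower, with a median log2 fold change of -1.0 (*Act57B*, at -0.04, did not pass). For this list and those below, the shares over all genes tested were 16.1% lower and 14.4% higher. The 13 were *Mhc*, *Mlc1*, *Mlc2*, *Act88F*, *Act79B*, *up*, *wupA*, *TpnC41C*, *Tm2*, *bt*, *sls*, *Prm* and *Mf*, genes of the contractile apparatus, with log2 fold changes from -1.45 for *Act88F* to -0.56 for *sls*. The summed level of the list was 3178 to 3309 CPM at 30d and 4959 to 7287 CPM at 3d, and *TpnC4* and *fln*, markers of flight muscle, had at most 3 and 13 counts in any sample. In whole heads, fewer cells of a type and less RNA per cell cannot be told apart. Neuron markers were lower as well (5 of 6, summed 3203 to 3459 CPM at 30d and 4418 to 5474 CPM at 3d), as were 4 of 6 glial markers (2682 to 2736 CPM at 30d and 3394 to 3981 CPM at 3d). For 2 of 3 hemocyte markers tested, of 4 listed, levels were higher (421 to 509 CPM at 30d and 339 to 356 CPM at 3d). The called neuron markers were *nSyb*, *Syt1*, *brp*, *Syx1A* and *para*, and *elav* (log2 fold change -0.18) was not called. The called glial markers were *Gs2*, *Eaat1*, *nrv2* and *alrm*. The other glial markers, *repo* (0.17) and *moody* (0.13), were not called and had higher means at 30d. The called hemocyte markers were *Hml* and *NimC1*, whereas *eater* (-0.29) was not called and had a lower mean at 30d. Without 30d replicate 2 only 2 glial markers and 1 hemocyte marker were called. With scaling by library size alone, only 2 glial markers were called lower. The part of these shifts in the levels of the small heat shock genes was not tested.

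Compared per length of exon, with the exons of all transcripts of a gene merged, the family changed its order of levels with age. In 3d heads *CG7409* was the highest, at 163 ± 12.7 CPM per kb (SD, n = 3), and stood above *CG14207*, at 86.2 ± 4.04, in every sample. In 30d heads *CG14207*, at 90.5 ± 9.08 CPM per kb, stood above *CG7409*, at 52.5 ± 5.78, in every sample. The merged length was 1524 bases over 4 transcripts for *CG14207* and 760 bases over 1 transcript for *CG7409*. Counts per gene do not tell which transcripts were present, and with a shorter length *CG14207* would stand higher per kb. The order of these genes at 3d is therefore not certain. In CPM without regard to length, *CG14207* had the higher mean at both ages (131 against 124 at 3d). *CG7409* alone accounted for most of the change in the summed level of the 10 genes, which was 292, 266 and 266 CPM in the 30d samples, against 456, 410 and 360 CPM in the 3d samples.

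Below these, the samples of neighboring genes in the order mostly overlapped. At 30d *l(2)efl* (37.3 ± 10.3 CPM per kb) and *Hsp26* (28.4 ± 17.6) could not be separated, nor *Hsp23* (14.9 ± 6.16) and *CG4461* (14.01 ± 2.82), nor *Hsp27* (5.02 ± 3.00) and *Hsp67Bc* (3.65 ± 0.29). At 3d *Hsp26* (46.6 ± 12.7), *l(2)efl* (37.4 ± 6.83) and *CG4461* (35.1 ± 6.15) overlapped, all 3 above *Hsp23* (18.3 ± 3.69) in every sample, and *Hsp67Bc* (10.99 ± 2.32) overlapped with *Hsp27* (9.15 ± 4.36). *Hsp67Ba* was lowest at both ages by its whole length, but over the 417 bases that no other gene shares it had 8.19 CPM per kb at 30d and 15.8 CPM per kb at 3d, and its place in the order is not certain. Of the other alpha-crystallin genes of the fly, *CG13133* stood at 24.2 ± 4.87 CPM at 30d and 27.6 ± 1.16 CPM at 3d with a log2 fold change of -0.19 that was not called, and *CG43851* had 1 count in all.

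The genes through which the small heat shock genes are controlled did not move as one. *Hsf*, which encodes the heat shock factor, had 79.8, 79.0 and 77.0 CPM at 30d, against 78.2, 80.3 and 67.9 CPM at 3d, and was not called (log2 fold change 0.06, standard error 0.09). Of 9 regulators listed and tested, 3 were higher, against 14.4% of all genes tested, and 3 lower, against 16.1%, with a median log2 fold change of 0.06. The 3 that were higher were *puc*, which encodes the phosphatase that limits JNK signaling (0.55), *cnc*, the factor of the oxidative stress response (0.47), and *foxo*, the factor of insulin signaling (0.29). The 3 that were lower were *br* (-0.86) and *EcR* (-0.31), an early response factor and the receptor of ecdysone, and *bsk*, the JNK kinase (-0.44).

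Other genes of the heat shock response differed in direction. *Hsp83*, the fly Hsp90, had 1052, 1526 and 1317 CPM at 30d, against 426, 861 and 825 CPM at 3d. The ages did not overlap, and 3d replicate 1 was far below its fellows. Of 11 acute heat shock genes 7 were tested, and 3 were higher, against 14.4% of all genes tested. These were *Hsp83* (log2 fold change 0.88), *stv* (0.40), which encodes Starvin, the partner of *Hsp67Bc*, and *DnaJ-1* (0.38), an Hsp40 co-chaperone. None of the 7 was called lower (2 at an unadjusted p under 0.05, 0 with DESeq2, 1 with limma-voom, 3 with the replicate number as a block and 3 with no filter beyond 1 count), although *Hsp68* (-0.63), *Hsp70Bb* (-1.61) and *Hsp70Bc* (-1.15) had negative values, the last 2 genes from few counts. The 6 *Hsp70* copies are nearly identical, so the counting could have lost or split their reads. Without 30d replicate 1, 3 genes of this list were called lower, and without 3d replicate 3, 1 was. The number called higher was 2 or 3 with single samples left out.

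Among the partner chaperones, 9 of the 12 listed were found by symbol and tested. Of these, 4 were higher (3 with DESeq2), against 14.4% of all genes tested, and 1 was lower, against 16.1%. Higher were *Hsc70Cb* (log2 fold change 0.57), an Hsp110 that acts with Hsp70 in taking proteins out of aggregates, *ref(2)P* (0.50), the autophagy receptor p62, *Cdc37* (0.46), a co-chaperone of Hsp90, and *Hsc70-4* (0.39), the main constitutive Hsp70. *Hsc70-1* was lower (-0.59). Of 8 mitochondrial chaperones and proteases, the company of *Hsp22*, 7 were tested and 0 passed the threshold with edgeR or DESeq2 (1 at an unadjusted p under 0.05, 0 with limma-voom, and 1 higher with scaling by library size alone), with log2 fold changes between -0.09 and 0.19. Over all genes tested, 30.4% passed in either direction with edgeR.

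Over the 6 samples, the genes outside the family whose log2 CPM followed the mean log2 CPM of the 9 genes most closely, among 6437 genes with at least 50 counts on average, were *Klp10A* (Pearson's r = 0.998), *t* (0.997), *RIC-3* (0.996), *RapGAP1* (0.992) and *CG33144* (0.991). These values describe 6 points that share age and library, and high values are easily found among so many genes. All 5 had lower means at 30d, with log2 fold changes between -0.48 for *t* and -0.17 for *Klp10A*, smaller than that of any of the 4 small heat shock genes that fell.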

How the data were processed

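Polyadenylated RNA was sequenced from a single end. The authors aligned the reads to dm6 with STAR, used HTSeq to count, on either strand, the reads contained in the exons of a single gene, and deposited the raw read counts; DESeq is also named in their notes, for normalization, and no normalized value was used here. The annotation release is not given in the sources used here. Symbols and exons came from Ensembl release 115 on dm6, in which 17356 of the identifiers were found.

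Counts were fitted with edgeR 4.0.16 in R 4.3.3, after filterByExpr with a count minimum of 10 and TMM scaling. Standard errors are the log2 fold change divided by the square root of F. The scripts were tested on simulated data. Python 3.11.15, pandas 2.3.3 and matplotlib 3.10.9 made tables and plots. Alternatives were other scalings, DESeq2 1.42.0, limma-voom 3.58.1, other filters, a replicate block and leaving out samples.

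The members, the gene lists and the tests were chosen with earlier results of these data known. By rule, all members were named, any gene of a short list, the called genes of longer lists, and the 5 genes outside the family with the highest Pearson's r to the members' mean. *Hsp68*, *Hsp70Bb*, *Hsp70Bc*, *Hsf*, *Act57B*, *TpnC4*, *fln*, *ninaE*, *per*, *tim* and the other clock genes, though not called, were named after their values were seen. Of the markers not described above, 2 of 8 of photoreceptors were lower (*ninaC* and *inaD*), 1 of 5 of fat body was higher (*Yp3*), and of 3 of sex *Yp3* was higher and *roX1* and *roX2* were lower. Over all genes tested, 16.1% were lower and 14.4% higher. Sequences of promoters and proteins were not analysed here. The counting errors and floors given cover counting alone, as the reads carry no molecular identifiers.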

Additional observations from a re-analysis of the deposited data

How the results depend on the processing

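*CG7409*, *Hsp67Bc* and *CG4461* stayed lower and past the threshold under every alternative run, and the number of small heat shock genes called lower, 4 of 9, ranged from 3 to 7 with each sample left out. The number called higher was 0 throughout. Over all genes, 1259 were higher, against 741 with DESeq2's Wald test, and between 876 and 1205 with a sample left out (1410 lower, between 1003 and 1391). Scaling by library size alone gave 1715 genes higher and 1053 lower and shifted the median over all genes by 0.077 on the log2 scale, with the same 4 small heat shock genes counted lower. *l(2)efl*, at 0.0039 as reported, turned to -0.0054 with DESeq2's size factors, -0.010 with DESeq2's test, -0.023 with limma-voom and -0.0020 with no filter beyond 1 count, and ranged from -0.13 to 0.22 with a sample left out. *CG14207* ranged from -0.010 to 0.13. The cause was not tested. With no filter beyond 1 count, *Hsp26* (adjusted p = 1.44e-07) and *Hsp27* (adjusted p = 0.000258) were called lower in edgeR's test. Their standard errors there, 0.12 and 0.20, were smaller than with the filter, 0.33 and 0.39. Whether the replicate numbers pair the samples is not given by the labels and was not settled here. Same-numbered samples deviated together with correlations across genes of 0.14, 0.020 and 0.047, and only number 1 correlated best with its own number. The clock genes *per* and *tim*, however, had the same order of samples at both ages. With the replicate block, 6 of the 9 genes were lower (*Hsp26* at adjusted p = 0.0141 and *Hsp27* at 0.0140 were gained), and over all genes 1518 were lower and 1389 higher. Among the counts on the marker and pathway lists, 28 values under these alternatives moved by over 1.5 times.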
